A study of Mus musculus with 30 samples.

Results

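Among 30 gastrocnemius libraries, 1 per mouse, the 14 libraries of the LD group were selected, and were ordered by a measured value, the FPKM of Dbp divided by the FPKM of Bmal1. The 7 libraries chosen by the highest ratios were compared with the 7 chosen by the lowest. FPKM is the number of reads on a gene scaled to the length of its exons and to the size of the library. All mice were male, wild-type C57BL/6J, housed singly with a running wheel, young adults when the schedules began, and their muscle was taken after 64 weeks. Before the schedules, all of them had been held in constant darkness for some weeks, as the study's methods state. Once the schedules began, LD mice stayed on a light-dark cycle that was never shifted. The other 16 mice, the ADV group, lived under a cycle advanced by 8 hours every 4 days. Per the study's methods, tissue was taken in the light phase, from morning to late afternoon, on a day when both schedules had the same hours of light. The hour of each mouse is not given in the sources used here, so the ratio orders libraries by a measured state of the clock and not by a labelled time. The sets of high and low ratio are therefore not groups of the study. Unless a continuous term is named, each p-value of an LD gene contrast measures a difference between 7 and 7 mice, not an ordering.

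The circadian clock of muscle is a feedback loop in which the proteins of Bmal1 and Clock, or of Npas2 in place of Clock, bind E-boxes and switch on the Per and Cry genes, whose products then repress them. A second loop joins Nr1d1 and Nr1d2, repressors that act on Bmal1 and Npas2, and another runs through D-boxes, which are bound by the activators Dbp, Tef and Hlf and by the repressor Nfil3. Because Dbp is an output of Bmal1 and peaks away from it in the day, a high Dbp level with a low Bmal1 level marks one side of the cycle and the reverse marks the other.

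Letters that these factors are known to bind are shown first, in front of 2 called clock genes, Per2 and Per3, and of 2 that were not called, Ciart and Cry1. No motif searched for was found before Usp2 and Npas2, the other called clock genes. The 250 bases before the start of each deposited transcript were searched on both strands of GRCm39 for the E-box CACGTG, for the D-box TTATGTAA and for the RORE core TAGGTCA, which does not overlap with either. Of the windows below, those of Per2 and Per3 are the stretches outside annotated exons of protein-coding genes, and those of Ciart and Cry1 are 30 bases around a motif that lies in an annotated exon. Motifs are in capitals, and all 4 sequences are read 5′ to 3′ on the minus strand, on which these genes lie.
Per2 (chr1:91387070-91387296): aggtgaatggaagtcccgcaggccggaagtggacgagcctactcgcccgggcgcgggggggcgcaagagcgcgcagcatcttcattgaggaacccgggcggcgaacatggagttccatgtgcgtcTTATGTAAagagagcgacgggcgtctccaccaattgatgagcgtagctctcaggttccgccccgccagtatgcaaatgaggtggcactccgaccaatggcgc
Per3 (chr4:151129141-151129372): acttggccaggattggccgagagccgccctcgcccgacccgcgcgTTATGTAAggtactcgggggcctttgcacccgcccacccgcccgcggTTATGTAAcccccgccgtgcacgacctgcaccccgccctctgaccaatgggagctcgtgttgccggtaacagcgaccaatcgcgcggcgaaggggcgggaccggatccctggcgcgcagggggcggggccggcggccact
Ciart (chr3:95789639-95789668): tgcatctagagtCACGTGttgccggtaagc
Cry1 (chr10:85020961-85020990): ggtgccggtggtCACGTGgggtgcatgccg

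The ratio ran from 0.227 in LD 34 to 9.90 in LD 30, where the number is that of the mouse in the labels. Its median was 4.92 in the high-ratio libraries (LD 28, 29, 30, 31, 32, 33 and 36) and 1.19 in the low-ratio libraries (LD 21, 22, 23, 26, 27, 34 and 35). The sets thus largely went with the label numbers, with 21 to 27 low, 28 to 33 high and 34 to 36 mixed. The labels do not say what order the numbers follow, and anything tied to it cannot be told apart from the ratio here. The division fell between 2.77 in LD 28 and 2.15 in LD 27, which lay close together, while LD 34 stood apart below the next lowest ratio of 0.949. As a description of what chose the sets, Dbp was 37.5 ± 11.3 FPKM (SD, n = 7) in the high-ratio libraries and 16.0 ± 7.68 in the low-ratio libraries, and Bmal1 was 7.35 ± 1.17 and 13.1 ± 0.88 FPKM. Neither gene is counted in anything that follows.

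**Figure D1:**
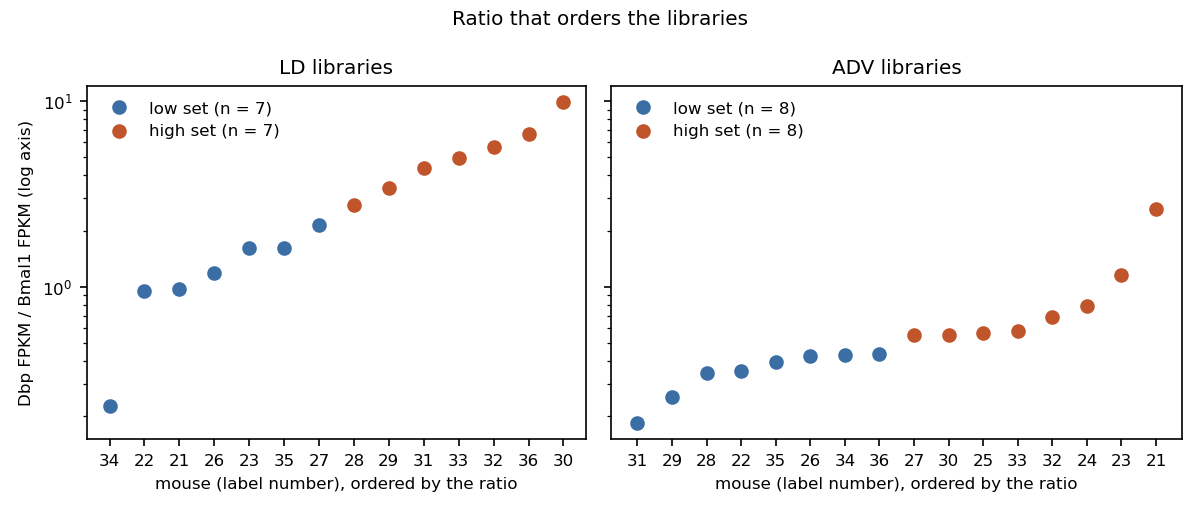
Dbp FPKM divided by Bmal1 FPKM (log axis) in each library, ordered from low to high, for the LD mice (left) and the ADV mice (right). Blue points are the low-ratio set and orange points the high-ratio set of each schedule. LD 34 lies at 0.227, apart from the other LD libraries, and all 16 ADV libraries lie below 2.77, the lowest ratio of the high-ratio LD set.

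The ordering was set beside that by another pair of clock genes, Nr1d1 over Npas2, on the log2 scale. Npas2 shares known repressors with Bmal1, and Nr1d1 did not differ detectably between the sets (log2 difference -0.12, FDR = 0.839, edgeR). Correlation with this pair is therefore no independent check of the order. In the 14 LD libraries the 2 log2 ratios were correlated (Pearson's r = 0.87, p = 4e-05, and Spearman's rho = 0.943, p = 2e-05, two-sided permutation tests with 100000 permutations, of which the latter is the smallest they can give, both 8e-05 after Benjamini-Hochberg adjustment over 4 tests, the 2 coefficients in the 2 schedules). Without LD 30 and LD 34, the libraries farthest from the median, r was 0.829. A division by Nr1d1 over Npas2 put 12 of the 14 libraries in the same set, whereas LD 31 and LD 35 changed sets. Between the sets of this division edgeR called 0 genes, with 1757 at an unadjusted p under 0.05.

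Depth and composition of the libraries were compared between the 2 sets. Reads on exons numbered between 19015401 and 28512674 per LD library and did not differ detectably between the sets (two-sided exact permutation test of the means, p = 0.422), nor did the number of genes with a read (p = 0.663). Reads on exons made up 91.11 ± 0.15% of all counted reads in the high-ratio libraries and 91.23 ± 0.03% in the low-ratio libraries (n = 7 each, exact permutation p = 0.0565). The slope of expression on GC content, in log2 units per 10% of GC, was -0.0925 ± 0.0609 and -0.0400 ± 0.0581 (exact permutation p = 0.125). Defining markers of skeletal muscle were abundant in every library, with Acta1, the skeletal actin, at 15106 to 19180 FPKM and Ckm, the muscle creatine kinase, at 6288 to 9047 FPKM.

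Between the sets, 55 of 12028 genes (0.457%) passed an FDR of 0.05 and a fold change of 1.3 (edgeR's quasi-likelihood test with Benjamini-Hochberg adjustment), and these are called below. Of them, 22 (0.183%) were higher and 33 (0.274%) lower in the high-ratio libraries. At an unadjusted p under 0.05 there were 1965 genes (16.3%), with 996 higher (8.28%) and 969 lower (8.06%), and 75 genes (0.624%) passed the FDR whatever their fold change. The median log2 difference was 0.60 in size over the called genes, and the largest rise was 2.79-fold (Angptl7) and the largest fall 2.83-fold (Spon2). Sets did not overlap for 26 of the 55 called genes, against 62 of all 12028 genes tested (0.515%). The count rested on single libraries, since it lay between 10 without LD 34 and 258 without LD 28, and DESeq2 called 301 genes, the 55 among them. It was 7 with the log2 ratio as a continuous term and 1 in a test against a minimum fold change. Called genes that were higher had a median GC content of 45.9% and those that were lower 54.3%, beside 50.4% in genes that were not called, and 30 of the 55 were still called after each library's GC trend was removed.

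Of the clock genes listed as targets of E-boxes and D-boxes, 3 of 13 were called, all higher in the high-ratio libraries. At an unadjusted p under 0.05 there were 11 of 13, again all higher. Over all genes, 0.183% were called higher and 8.28% were higher at such a p. Their median log2 difference was 0.43, beside 0.007 over all genes. Dbp and these genes are tied by known regulation, so their shared direction is no independent measure of the phase.

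Per2, which encodes a repressor of the loop, was measured at 0.684 to 2.11 FPKM (median 1.65) in the low-ratio libraries and at 2.12 to 4.53 FPKM (median 3.72) in the high-ratio libraries. The sets touched without overlapping, with LD 28 the lowest of the high-ratio and LD 23 the highest of the low-ratio libraries. Its log2 difference was 1.25 ± 0.21 (SE, FDR = 0.0185, edgeR), and it was called in 13 of the 14 fits that left out 1 LD library. Per3, a relative of Per2 with a lesser part in the loop, stood at 1.87 to 3.12 FPKM (median 2.50) and at 2.73 to 5.41 FPKM (median 3.86). Here LD 28 lay below LD 23, so that the sets overlapped, and the log2 difference was 0.67 ± 0.14 (FDR = 0.0409, edgeR), called in 5 of 14 such fits. Per1, the third member of the family, reached 18.3 FPKM in the low-ratio library LD 35 and was as low as 8.37 FPKM in the high-ratio library LD 28, and was not called (log2 difference 0.82 ± 0.30, FDR = 0.185, edgeR).

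Usp2, a deubiquitinase whose RNA cycles in many tissues, was the other called gene of the list. It stood at 27.7 to 48.5 FPKM (median 30.8) in the low-ratio and at 34.96 to 77.6 FPKM (median 64.9) in the high-ratio libraries. Overlap between the sets came from LD 35 on the low-ratio side and LD 28 on the high-ratio side, and the log2 difference was 0.97 ± 0.17 (FDR = 0.0185, edgeR). Nr1d2, a repressor of Bmal1, did not overlap between the sets, with 14.6 to 17.9 FPKM (median 17.7) against 19.3 to 23.1 FPKM (median 22.5). It passed the FDR (0.00728, edgeR) with a log2 difference of 0.37 ± 0.05, just short of a fold change of 1.3. Ciart, a repressor of the proteins of Bmal1 and Clock, had the largest difference of the list, 1.65 ± 0.38 on the log2 scale, but also the widest spread and an FDR of 0.0561 (edgeR). Its FPKM was 0.584 to 5.73 (median 2.01) in the low-ratio and 4.01 to 8.97 (median 7.05) in the high-ratio libraries, and the single low-ratio library inside the range of the others was LD 35.

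Cry2 (log2 difference 0.55, FDR = 0.0837), a partner of the Per proteins, and the D-box activators Tef (0.30, FDR = 0.087) and Hlf (0.34, FDR = 0.168) were not called by edgeR, and neither were the E-box repressors Bhlhe41 (0.43, FDR = 0.129) and Bhlhe40 (0.29, FDR = 0.293). The remaining 2 members had values on the other side of 0. Nr1d1, the sister of Nr1d2, was at 37.0 to 107.6 FPKM in the low-ratio and at 48.2 to 73.3 FPKM in the high-ratio libraries (log2 difference -0.12 ± 0.20, FDR = 0.839, edgeR). Its 2 highest libraries were LD 35 and LD 27, both of the low-ratio set, and LD 34 was the lowest. Of its exon bases, 49.2% lie opposite exons of Thra, a thyroid hormone receptor gene, and since the strand option of the counting is not given in the sources used here, reads of the pair cannot be told apart. Wee1, a kinase of the cell cycle, differed by -0.17 ± 0.13 on the log2 scale (FDR = 0.57, edgeR).

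Genes called lower in the high-ratio libraries made up 0.274% of all genes. On the side of Bmal1, 1 of 7 tested members of the second clock list was called, and it was lower in the high-ratio libraries. This was Npas2, at 0.594 to 0.893 FPKM (median 0.740) in the low-ratio and at 0.125 to 0.616 FPKM (median 0.200) in the high-ratio libraries. Only LD 28 of the high-ratio libraries reached the range of the low-ratio ones, and the log2 difference was -1.31 ± 0.26 (FDR = 0.0326, edgeR), called in 4 of the 14 fits that left out 1 LD library. Exons of the unnamed model Gm53549 lie opposite 16.2% of its exon bases. Nfil3, the D-box repressor, was at 8.37 to 22.7 and at 4.77 to 16.2 FPKM (log2 difference -0.54, FDR = 0.293, edgeR). Clock (-0.17, FDR = 0.334) and Cry1 (-0.17, FDR = 0.507), a late-acting repressor, were not called by edgeR, whereas Rora (0.34, FDR = 0.2), an activator of Bmal1, and the kinase gene Gsk3b (0.13, FDR = 0.192) had values above 0. The list's median was -0.17, and Bmal2 was too low to be tested. At an unadjusted p under 0.05, 3 of the 7 tested were lower and 2 higher, beside 8.06% and 8.28% of all genes. The 2 higher were Rora and Gsk3b.

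**Figure D2:**
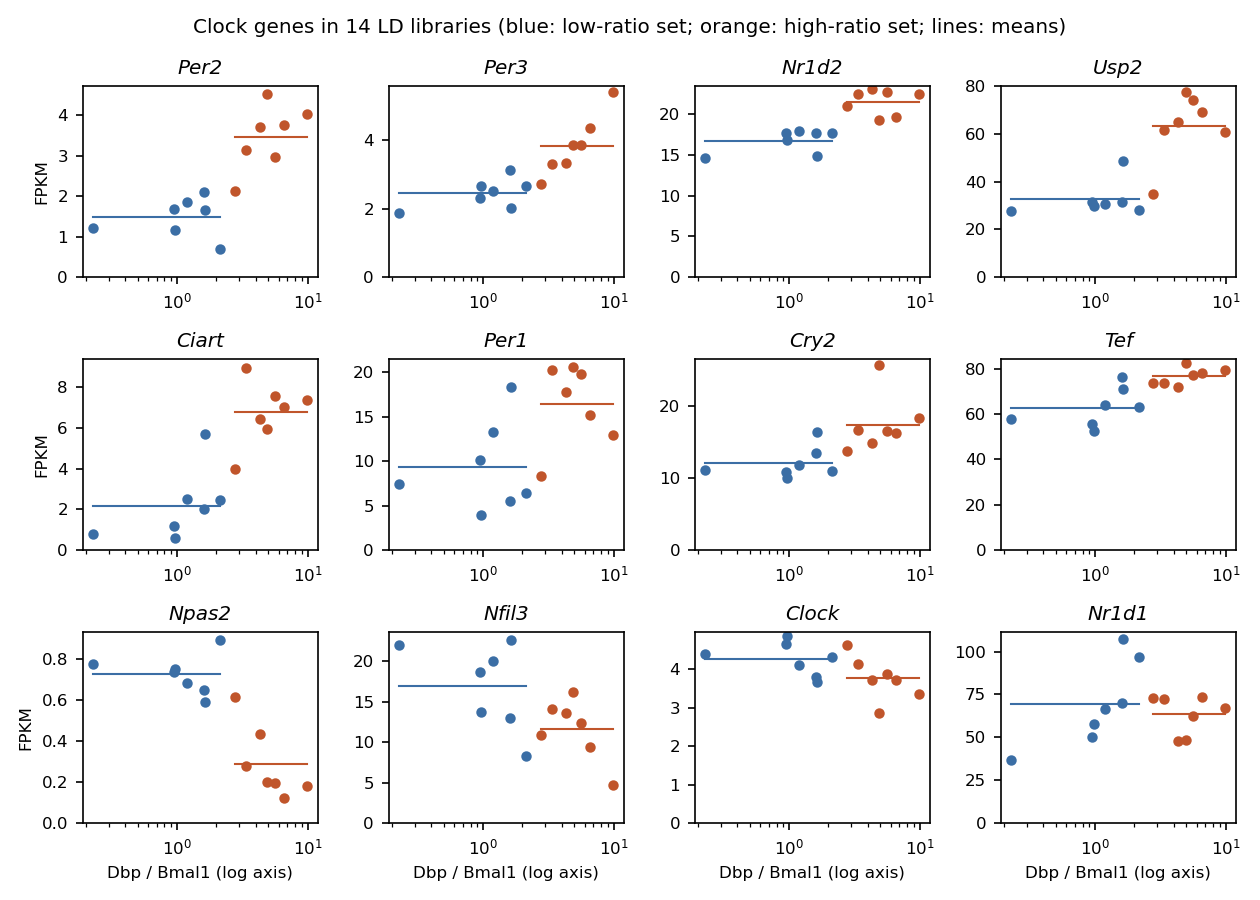
FPKM of 12 clock genes (vertical axes from 0) against Dbp FPKM divided by Bmal1 FPKM (log axis) in the 14 LD libraries. Blue points are the low-ratio and orange points the high-ratio libraries, and lines are the means of 7 libraries. Per2 and Nr1d2 do not overlap between the sets, and Npas2 falls from a low-ratio median of 0.740 FPKM to 0.200. Nr1d1 is highest in the low-ratio libraries LD 35 and LD 27.

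The D-box TTATGTAA was found in 0.499% of the 12026 windows searched and in the windows of 2 of the 22 called genes that were higher, Per2 and Per3, once at 125 bases before the start of Per2 and at 205 and 158 bases before that of Per3. None of the 33 windows of genes that were lower held it. E-boxes were found in 8.29% of all windows, in 3 of the 22 (Atp6v1h, Trpm7 and Abca1), in 3 of the 33 (Fam20c, Wsb1 and Vps37b) and in 4 of the 13 of the first clock list (Tef, Ciart, Per1 and Bhlhe41). Ciart had 3 of them, at 113, 55 and 41 bases before its start, and Cry1 had 1, at 50 bases. The RORE core was in 1.51% of all windows and in none of those of called genes or of both clock lists. A match describes these letters alone and no binding.

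Beside the clock, the 10 largest rises and the 10 largest falls among called genes were examined. Angptl7, a secreted angiopoietin-like protein, was at 4.98 to 8.18 FPKM (median 6.46) in the low-ratio and at 5.40 to 32.8 FPKM (median 17.0) in the high-ratio libraries, where LD 28 alone lay within the low-ratio range. Its log2 difference was 1.48 ± 0.29 (FDR = 0.0302, edgeR). Mylk4, a kinase gene of the myosin light chain kinase family and the most abundant of the called genes, did not overlap between the sets, at 108 to 202 FPKM (median 159) and at 212 to 366 FPKM (median 270), and had a log2 difference of 0.80 ± 0.16 (FDR = 0.0373, edgeR). It was called in 3 of the 14 fits that left out 1 LD library, and not with the GC trend removed (FDR = 0.0671, edgeR). Tacc2, which encodes a coiled-coil protein of the centrosome and microtubules, was at 63.4 to 103 and at 85.6 to 210 FPKM (log2 difference 0.83, FDR = 0.0422, edgeR). LD 35 and LD 28 were again the libraries that overlapped. Angptl7 and Tacc2 were each called in 5 of those 14 fits, and Tacc2 was not called with the GC trend removed (FDR = 0.0551, edgeR).

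The lipid transporter genes Abca1, the cholesterol exporter, and Abca6 were higher by 0.63 and 0.61 on the log2 scale (FDR = 0.0286 for both, edgeR). Fmo2, a flavin monooxygenase, differed by 0.82 (FDR = 0.0459). Abca1 was called in 7, Abca6 in 5 and Fmo2 in 4 of the 14 fits that left out 1 LD library, and with the GC trend removed Abca6 (FDR = 0.0738) and Fmo2 (FDR = 0.07, edgeR) were not called. Tspan4, a tetraspanin of the cell membrane, had the smallest error relative to its difference among these 10 rises, with 2.86 to 4.00 FPKM in the low-ratio and 4.40 to 5.80 FPKM in the high-ratio libraries and a log2 difference of 0.65 ± 0.09 (FDR = 0.00396, edgeR), and it was called in each of the 14 fits that left out 1 LD library. Of its exon bases, 19.7% lie opposite exons of Chid1.

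Among the falls, Spon2, a secreted protein of the extracellular matrix, was at 0.531 to 1.20 FPKM (median 0.871) in the low-ratio and at 0.172 to 0.528 FPKM (median 0.262) in the high-ratio libraries, which did not overlap. Its log2 difference was -1.50 ± 0.25 (FDR = 0.0172, edgeR), with a mean of only 26.8 reads. Pnpla3, a lipid droplet protein whose RNA follows feeding in liver and fat, was at 1.86 to 6.56 FPKM (median 2.89) and at 0.851 to 1.66 FPKM (median 1.35), again without overlap, and its highest library was LD 34 (log2 difference -1.38 ± 0.26, FDR = 0.0286, edgeR). Fam110b was at 1.02 to 1.74 and at 0.478 to 0.813 FPKM (log2 difference -1.10 ± 0.13, FDR = 0.00139, edgeR), the lowest FDR of the 55 called genes. The same list held Adra1a, the alpha-1A adrenergic receptor (-0.74), Dyrk2, a protein kinase (-0.75), Pag1, an adaptor of Src family kinases (-0.81), Nav2, a neuron navigator (-0.71), the acetyltransferase Nat14 (-0.83) and Dcdc2b (-0.92), each with an FDR between 0.0213 and 0.0409 (edgeR). In the fits that left out 1 LD library, Pnpla3 and Adra1a were called in 7 of 14, and the other genes of this paragraph in between 4 (Dcdc2b) and 14 (Spon2 and Fam110b). Dcdc2b was not called with the GC trend removed (FDR = 0.0551, edgeR).

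Called genes outside these rules are given because they were called in every such fit, and were picked after their values were seen. Along with Spon2, Fam110b and Tspan4, the genes called in all 14 fits that left out 1 LD library were Col5a3, a fibrillar collagen chain (log2 difference -0.66), Zfp516, a zinc finger protein (-0.52), Wsb1, a ubiquitin ligase subunit (-0.48), Myo10, an unconventional myosin (-0.44), Trpm7, an ion channel joined to a kinase (0.48), and Kpna2, a nuclear importin (0.48). These 9 genes stand against 25 that were called in at least 7 of those fits. All 55 kept their sign in each of the 32 alternatives in which they were tested, and filters left some of them out of some alternatives.

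**Figure D3:**
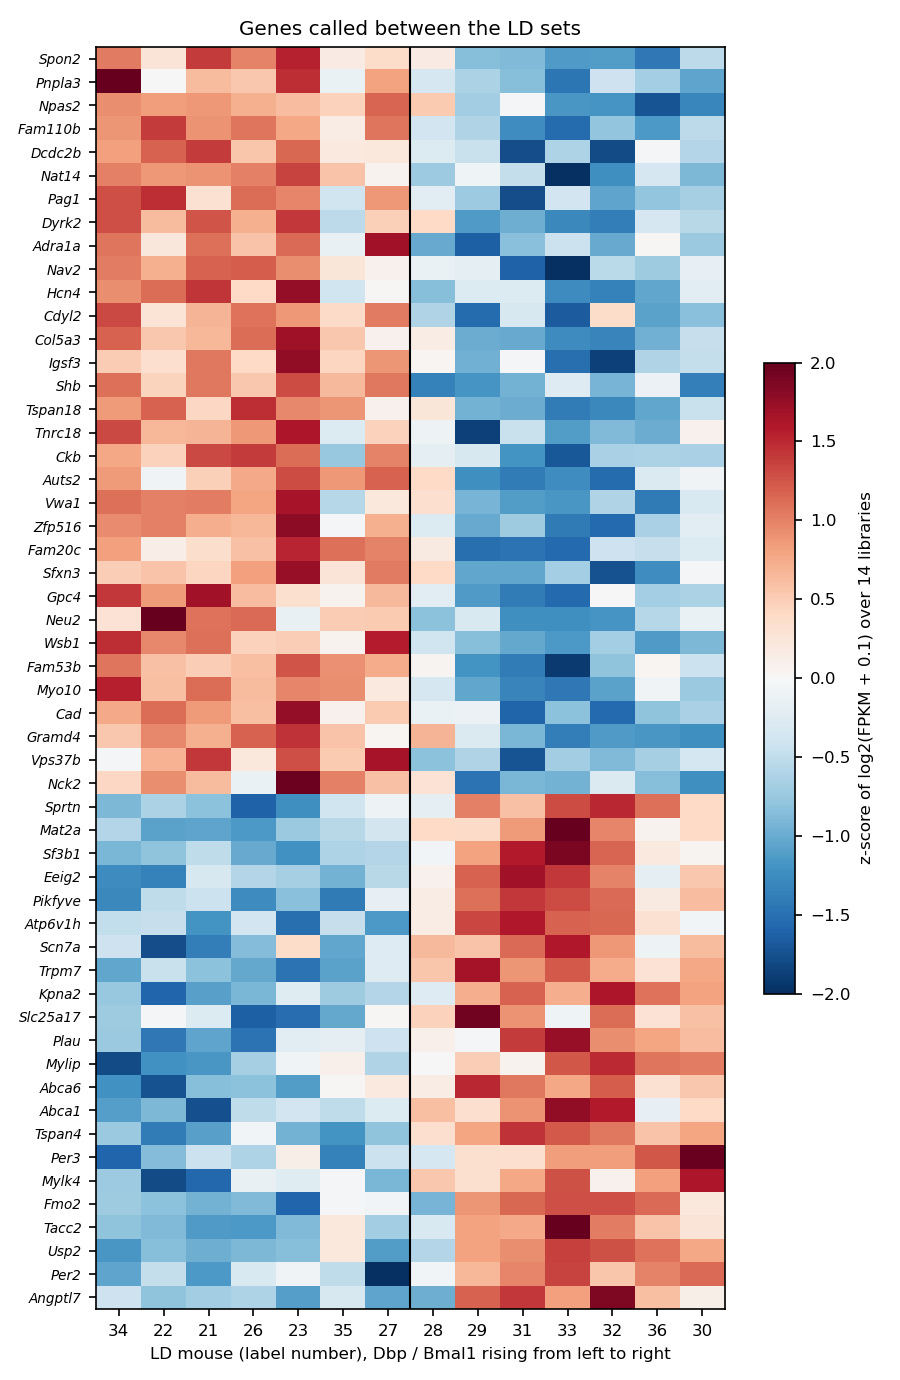
Called genes (54 of the 55, in rows ordered by log2 difference) in the 14 LD libraries (columns, Dbp over Bmal1 rising from left to right), as z-scores of log2(FPKM + 0.1) over the libraries. The black line separates the low-ratio from the high-ratio set. LD 35, of the low-ratio set, and LD 28, of the high-ratio set, have paler colors than their neighbours for many genes. LD 28 is next to the division, and LD 27 lies between the division and LD 35.

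Lists of other pathways were read in the same fit, each by its count and median beside those of all genes (996 higher and 969 lower of 12028 at an unadjusted p under 0.05, median 0.007). No member of these lists was called by edgeR, so that the differences below are values without a call. Glucocorticoid-responsive genes, which follow the daily wave of corticosterone, had 10 of 18 members higher and 1 lower at an unadjusted p under 0.05, and a median log2 difference of 0.45. Per1 is among the 10 and was also counted in the first clock list. Mt1, a metallothionein that binds zinc, was at 9.79 to 17.1 FPKM (median 15.04) in the low-ratio and 12.1 to 44.7 FPKM (median 35.9) in the high-ratio libraries (log2 difference 1.18, FDR = 0.06, edgeR), and the related Mt2 had a log2 difference of 1.44 (FDR = 0.0604, edgeR). Klf9, a transcription factor, differed by 0.67 (FDR = 0.0538) and Pik3r1, a regulatory subunit of PI3 kinase, by 0.74 (FDR = 0.081, edgeR). In all 4 the highest low-ratio library was LD 35.

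Genes of fatty acid use had 9 of 24 members higher and 0 lower at an unadjusted p under 0.05, with a median of 0.29. Among those of lowest p were Acot2, a mitochondrial thioesterase (log2 difference 0.95, FDR = 0.0844), Mlycd, which removes malonyl-CoA (0.40, FDR = 0.087), and the uncoupling proteins Ucp2 (0.79, FDR = 0.101) and Ucp3 (1.46, FDR = 0.128, edgeR). Ucp3 ranged from 14.1 to 98.3 FPKM in the low-ratio and from 47.8 to 257 FPKM in the high-ratio libraries, and LD 35 was the highest of the former. Amino acid and polyamine genes had 6 of 16 members higher and 0 lower, with a median of 0.20, among them Glul, glutamine synthetase (1.17, FDR = 0.112), Odc1, the first enzyme of polyamine synthesis (0.68, FDR = 0.112), and Sat1, of polyamine breakdown (0.34, FDR = 0.0903, edgeR). In the glucose list 4 of 23 members were higher and 2 lower (median 0.07), with Pdp2, which activates pyruvate dehydrogenase, at 1.01 (FDR = 0.0888) and Irs2, the insulin receptor substrate, at -0.58 (FDR = 0.101, edgeR). Lipid synthesis had 2 of 20 higher and 1 lower (median -0.11), the latter being Srebf2, the regulator of sterol synthesis (-0.34, FDR = 0.0586, edgeR).

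Stress and matrix lists held more members that were lower. Of the heat shock genes, 6 of 20 were lower and 0 higher at an unadjusted p under 0.05, although the median was -0.05. Serpinh1, the collagen chaperone, was at 14.6 to 37.8 FPKM (median 27.2) in the low-ratio and at 9.81 to 20.2 FPKM (median 14.4) in the high-ratio libraries (log2 difference -0.82, FDR = 0.054), while Hspa1b, an inducible Hsp70, differed by -1.07 (FDR = 0.127, edgeR). Collagen and matrix genes had 7 of 18 lower and 1 higher (median -0.10), with Col6a3 at -0.61 (FDR = 0.0844), Col15a1 at -0.60 (FDR = 0.0922) and Lox, the collagen crosslinker, on the other side at 0.94 (FDR = 0.0761, edgeR). Immediate early genes had 3 of 21 lower and 0 higher (median -0.05), namely Klf2 (-0.91), Klf4 (-0.89) and Nr4a3 (-1.47). Genes of the ER stress response had 2 of 18 higher and 4 lower (median -0.04).

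In the list of myogenic genes 1 of 16 was higher and 3 were lower at an unadjusted p under 0.05, with a median of -0.04. Dll1, a Notch ligand, was at 1.05 to 1.80 FPKM (median 1.15) in the low-ratio and at 0.671 to 0.999 FPKM (median 0.900) in the high-ratio libraries, which did not overlap, and had an FDR of 0.0509 (edgeR, log2 difference -0.64). Its receptor Notch1 was at -0.33 (FDR = 0.084), and Tcap, the cap protein of titin, at 0.41 (FDR = 0.0688, edgeR). Of Dll1's exon bases, 30.2% lie opposite exons of Fam120b. Atrophy and autophagy genes had 5 of 22 higher and 1 lower (median 0.12), including Bnip3, a mitophagy receptor (0.30, FDR = 0.12), and Fbxo21, a ubiquitin ligase subunit (0.39, FDR = 0.146, edgeR). The cold response list had 1 of 4 higher, Srsf5 (0.57, FDR = 0.0965, edgeR), and the fast fiber list 0 of 12 in either direction (median -0.04).

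**Figure D4:**
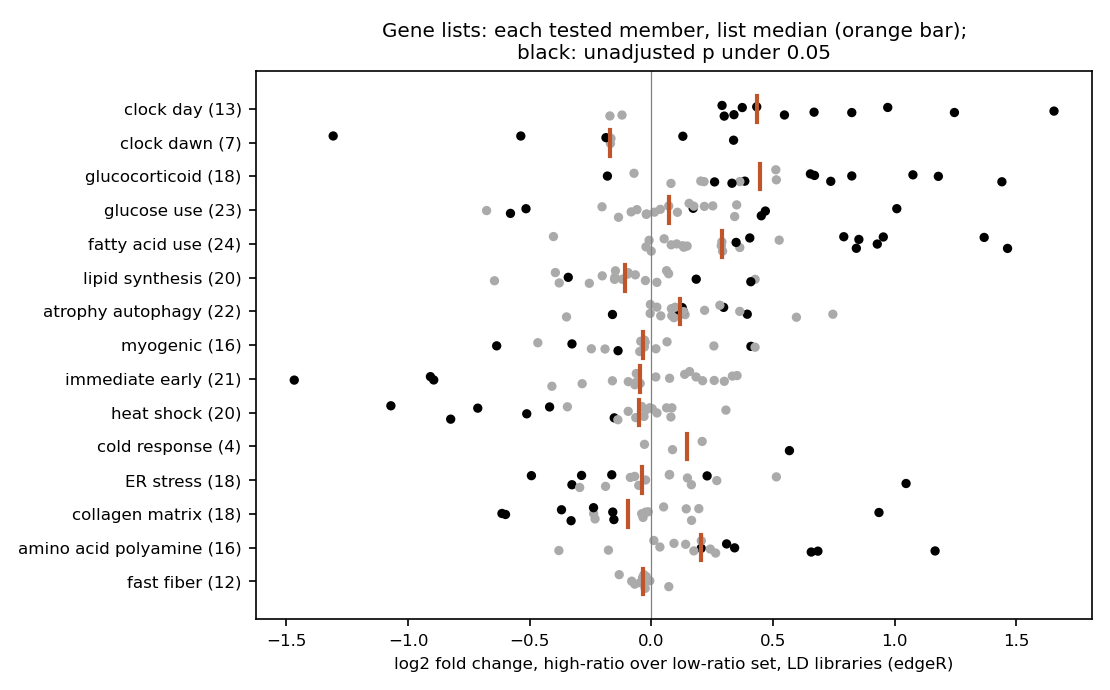
Log2 differences between the high-ratio and the low-ratio LD libraries (horizontal axis, edgeR) for each tested member of 15 gene lists, with the number of members in brackets. Black points have an unadjusted p under 0.05, gray points do not, and the orange bar is the list's median. The first clock list (median 0.43), the glucocorticoid list (0.45) and the fatty acid list (0.29) lie to the right of 0.

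Markers of other cell types were set beside these counts, since whole muscle was sequenced and fewer cells of a type cannot be told apart from less RNA per cell. No marker was called by edgeR, and at an unadjusted p under 0.05 the markers that differed were Lyz2, of myeloid cells (0.43), among 5 of leukocytes and Kdr, of endothelium (-0.50), among 4 of endothelium. None of 7 slow fiber, 5 adipocyte, 5 Schwann cell, 4 fibroblast and 5 red blood cell markers did so. The summed FPKM of slow fiber markers was 52.8 to 1073 in the low-ratio and 117 to 964 in the high-ratio libraries, that of adipocyte markers 136 to 269 and 152 to 246, and that of leukocyte markers 70.5 to 138 and 67.1 to 265. Of the plasma cell markers Ighm (0.18) and Igkc (1.80) were tested, and Igkc was at 0 in at least 1 low-ratio library and reached 61.5 FPKM in a high-ratio one. The part of these cells in the differences above was not tested.

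Sphk2, a sphingosine kinase gene, is the 1 tested gene whose exons lie opposite those of Dbp. Over 15.2% of its exon bases they overlap. It was at 4.01 to 4.93 FPKM in the low-ratio and at 2.88 to 4.20 FPKM in the high-ratio libraries (log2 difference -0.27, FDR = 0.122, edgeR), in the direction opposite to that of Dbp.

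The ADV mice were divided by the same rule, to set the values beside those of a schedule that shifts. The median ratio of their high-ratio set was 0.634, below the 1.19 of the low-ratio LD set. High and low therefore stand for different ratios in the 2 schedules. The ADV ratio ran from 0.184 to 2.63, with the 8 highest at or above 0.547 and the 8 lowest at or below 0.436. The mean difference of the log2 ratio was 1.23 in the ADV mice, against 2.24 in the LD mice. There Nr1d1 over Npas2 followed the ratio less closely (r = 0.563, p = 0.0387, adjusted p = 0.0516, and rho = 0.359, p = 0.172, permutation tests), and r was 0.093 without ADV 31 and ADV 21, on which the relation rested. With edgeR 0 of 12028 genes (0.0%) were called between the ADV sets, with 686 (5.7%) at an unadjusted p under 0.05, 500 of them higher (4.16%) and 186 lower (1.55%), and with DESeq2 0 were called and 705 had such a p. The ADV sets also differed in markers of other cell types, with 5 of 5 adipocyte and 4 of 7 slow fiber markers higher at an unadjusted p under 0.05. Their medians were 1.35 and 0.60 on the log2 scale. Of fibroblast markers 2 of 4, and of the collagen and matrix list, which shares members with them, 8 of 18 were higher at such a p, with 0 lower in each. The part of these cells in the ADV values was not tested.

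Of the 55 genes called in the LD mice, 23 had the same sign in the ADV mice (41.8%), beside 43.6% of all genes. Per2 (0.78 ± 0.25 on the log2 scale), Per3 (0.58 ± 0.17), Tspan4 (0.26 ± 0.12) and Npas2 (-0.80 ± 0.34) had the same sign with an unadjusted p under 0.05, and Nav2 (0.57) had the opposite sign with such a p. In the ADV mice Per3 was at 1.06 to 1.80 FPKM (median 1.51) in the low-ratio and at 1.33 to 3.76 FPKM (median 2.20) in the high-ratio libraries. Usp2, at 23.97 to 41.8 and 26.5 to 40.7 FPKM, had a log2 difference of 0.11 ± 0.11 there, against 0.97 in the LD mice, and the test of this difference gave an FDR of 0.0588 (edgeR). The glucocorticoid list had a median of -0.11 in the ADV mice and the fatty acid list one of -0.04.

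Whether the difference between high-ratio and low-ratio libraries itself differed between the schedules was tested in 1 fit over all 30 libraries. LD and ADV levels as such were not compared. This test called 25 of 12028 genes (0.208%), 6 (0.0499%) with a more positive and 19 (0.158%) with a more negative difference in the LD mice (edgeR). Pitpnm2, a phosphatidylinositol transfer protein, had the lowest FDR (0.0356), with log2 differences of -0.34 in the LD and 0.17 in the ADV mice. Toe1, an RNA exonuclease (0.40 and -0.30, FDR = 0.0373), Pag1 (-0.81 and 0.30), Gpc4, a heparan sulfate proteoglycan (-0.48 and 0.15), and Fam53b (-0.47 and 0.17, FDR = 0.0448 for each of these 3, edgeR) followed. The count was 0 when the ratio entered as a slope (1252 at an unadjusted p under 0.05) and 166 with DESeq2. It was also 0 without ADV 24 and ADV 25, 2 libraries of the ADV high-ratio set (edgeR, 1386 at such a p). The part of these 2 libraries in the differences was not tested.

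**Figure D5:**
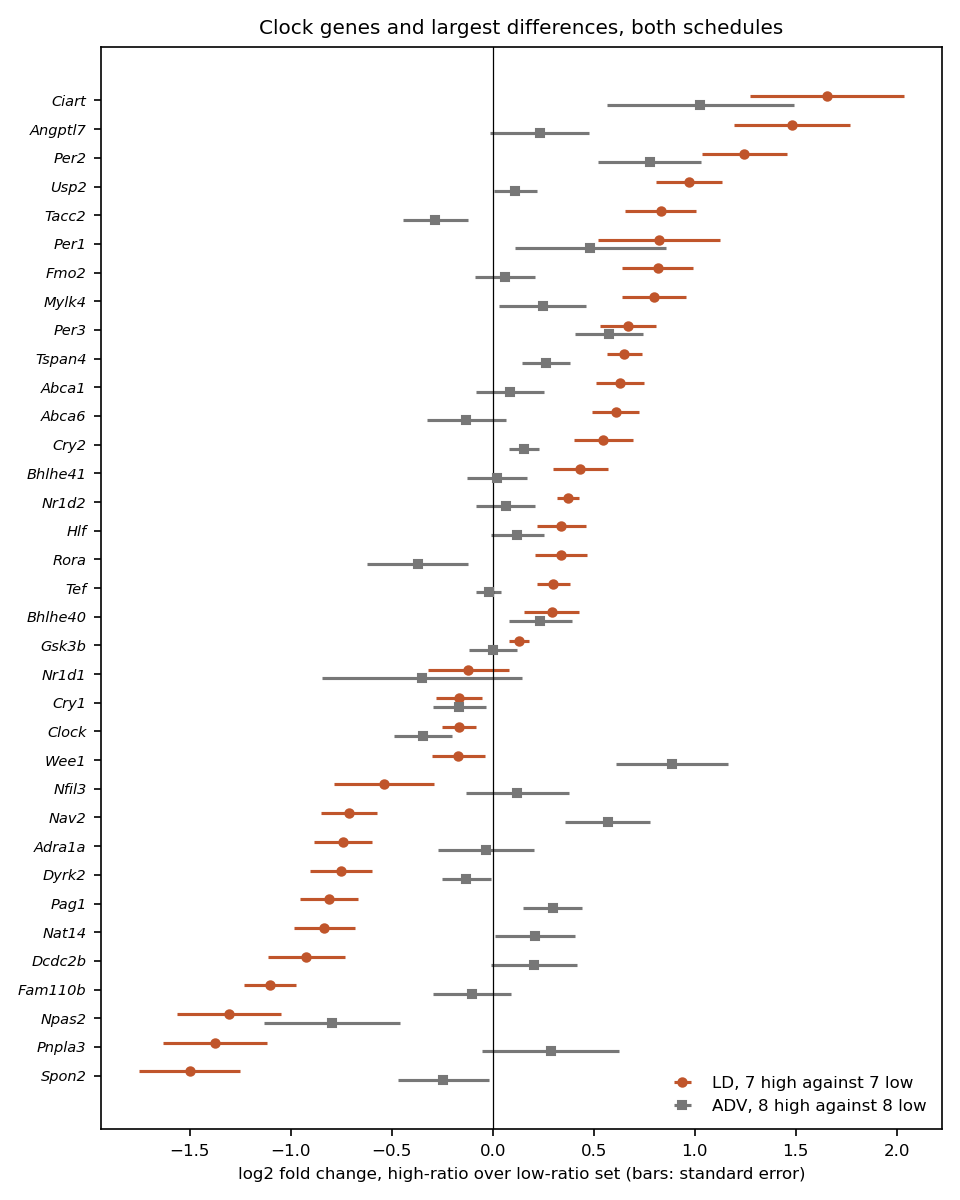
Log2 differences between the high-ratio and the low-ratio libraries (horizontal axis, bars are standard errors, edgeR) in the LD mice (orange circles, 7 against 7) and in the ADV mice (gray squares, 8 against 8), for clock genes and the 20 largest differences. Per2, Per3 and Npas2 lie on the same side of 0 in both, while Usp2 is at 0.97 in the LD and 0.11 in the ADV mice.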

How the data were processed

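Poly(A)-enriched RNA of gastrocnemius muscle was sequenced as stranded paired-end libraries, 1 per mouse. The authors used Trimmomatic for trimming and STAR 2.7.10a for mapping to GRCm39, removed reads of low mapping quality with SAMtools and counted reads on exons of UCSC known canonical transcripts with HOMER 4.11, after base calling with bcl2fastq (versions as in the submitters' processing notes). The strand option of the counting is not given in the sources used here. The authors deposited estimated counts per transcript without normalization, of which 14.8% were not whole because HOMER splits read pairs, and these were rounded before testing. The authors also deposited FPKM values, which are relative to exon length and library total. The FPKM values served to order the libraries, to show levels and in the filter, and the counts served for the tests.

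The tables hold 57186 rows and 56951 symbols, 232 of them on more than 1 row, of which 1 was kept. Tests covered genes whose mean over all libraries exceeded 20 reads and 0.5 FPKM (12030, or 12028 without Dbp and Bmal1), and they held 99.7% of the kept counts. Reads on exons numbered 19015401 to 28512674 per LD library. At the minimum of 20 reads counting error is large, and smaller differences were not detectable. Counts were compared with edgeR 4.0.16 in R 4.3.3 (TMM normalization, quasi-likelihood test), within the LD libraries alone and within the ADV libraries alone. All 30 were used to test whether the contrast of high and low ratio differed between the schedules. A gene was called when its FDR was below 0.05 and its fold change exceeded 1.3. The library numbers are those of the labels, each mouse is a replicate, and no 2 LD libraries agreed within counting noise (smallest chi-square per degree of freedom 10.6).

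Alternatives, given with their values in the closing section, were DESeq2 1.42.0, limma 3.58.1, other scalings, filters, divisions and covariates, leaving out each library, and removal of each library's GC trend (a natural spline, 4 degrees of freedom, set on genes averaging above 50 reads, with GC content from GENCODE transcripts known for 99.9% of tested genes). The continuous term without LD 34, the GC slope as a covariate, the GC removal within ADV and the unblocked fit of libraries whose label number occurs in both schedules were chosen after seeing the data. Correlations and single values were tested by permutation (scipy 1.17.1). In simulated counts for the LD contrast, 200 of 12030 genes were changed, and edgeR called 185 genes, 175 of them changed ones. It recovered 79 of 100 at a fold of 1.5 and 96 of 100 at a fold of 2. With none changed, it called 0. These values describe the simulated counts alone. How far they hold for the LD libraries, which were divided by a measured ratio, was not tested.

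The division of the libraries, the 24 gene lists and the tests were chosen with earlier results of these data known. Genes named are the tested members of both clock lists, the 10 largest rises and 10 largest falls among called genes whose medians differed the same way, up to 4 members of lowest p in each other list, genes overlapping the Dbp or Bmal1 rows, up to 5 of lowest p in the test between schedules, and those said in the text to be picked after their values were seen. Values of 2 genes are not reported here. Promoter letters were read from the GRCm39 genome by the coordinates of the deposited transcripts.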

Additional observations from a re-analysis of the deposited data

Results flagged for a closer look

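Of 252 sets of 7 libraries examined, 23 had 1 library far from the others by Dixon's ratio. Its cutoff is meant to pass about 1 set in 20 of independent, normal values. Most of these sets hold untransformed FPKM of genes measured in the same mice, so no excess over chance was established. The log2 ratio of LD 34 was -2.14, apart from the other low-ratio libraries, of which the next was at -0.0756. LD 35, a low-ratio library, was the highest of its set by this measure in Ciart (5.73 FPKM), Glul (177), Klf9 (49.0), Mt2 (14.9), Pik3r1 (5.58), Tacc2 (103) and Usp2 (48.5). The ratio of LD 35 was 1.624, beside 1.618 in LD 23, and LD 27 lay nearer to the division. LD 28, the high-ratio library nearest to the division, was the lowest of its set in Usp2 (34.96 FPKM).

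LD 23 was apart in its set with the highest Col1a1 (15.7 FPKM), Col5a1 (6.30) and Igkc (27) and the lowest Myh1 (660). LD 33 had the highest Cry2 (25.7 FPKM), Tacc2 (210) and Ucp2 (9.27) and the lowest Lum (5.57), and LD 32 the highest Hba-a2 (16.2), Hbb-bs (81.9) and Map1lc3a (120). Btg2 was highest in LD 26 (8.87 FPKM), Gpam in LD 27 (40.8) and Prx in LD 21 (2.16).

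The contrast differed between the LD and the ADV mice, by the test of the difference in 1 edgeR fit, for 7 of the named genes. The difference of the log2 differences, LD minus ADV, was -1.29 for Nav2, -1.12 for Pag1, -0.64 for Fam53b, -0.64 for Gpc4, -0.51 for Pitpnm2, 0.68 for Toe1 and 1.11 for Tacc2, at FDR values of 0.0356 to 0.049. No gene passed this test without ADV 24 and ADV 25.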

How the results depend on the processing

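The count of 55 genes called between the LD sets kept within 1.5 times of itself with RLE size factors, total counts, a mean FPKM over 1, limma on log2(FPKM + 0.1), counts summed over rows, 1 fit over all libraries, the exon share covariate and no limit on fold change, where it lay between 44 and 75. It moved to 1 in the test against a minimum fold change, 301 with DESeq2, 86 without a filter on low genes, 35 with limma on log2(FPKM + 1), 7 with the log2 ratio as a continuous term (13 without LD 34), 594 for the 5 highest against the 5 lowest, 32 with the GC trend removed, 149 with the slow fiber covariate, 241 with the GC slope covariate, and 0 with division by Nr1d1 over Npas2 (edgeR, 1757 genes at an unadjusted p under 0.05). In total, 22 of 55 were higher, against 117 of 241 with the GC slope covariate and 17 of 61 in 1 fit over all libraries. Leaving out 1 LD library gave 10 (LD 34) to 258 (LD 28), a change of over 1.5 times for every library other than LD 30 and LD 36: 13 without LD 31, 15 without LD 32, 16 without LD 29, 19 without LD 21 or LD 26, 25 without LD 22, LD 23 or LD 33, 99 without LD 27 and 219 without LD 35. The cause was not tested. All 55 genes were called by DESeq2 and 54 of them in the comparison of 5 against 5. Of 699 values of the 22 called genes among those named, 451 kept their call, 248 lost it and 0 were reversed, and of 3295 values of the others, 164 gained a call and 0 were reversed.

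The ADV count of 0 became 1 with the continuous term and was 0 in the fits that left out 1 ADV library, with the GC trend removed and with DESeq2. The correlation with Nr1d1 over Npas2 in the ADV mice, 0.563, was 0.093 without the 2 farthest libraries. The count of genes whose contrast differed between the schedules, 25, moved to 166 with DESeq2 and to 0 as a difference of slopes. With the label number as a replicate block it was 0 (edgeR, 1278 genes at an unadjusted p under 0.05), and the same libraries without the block also gave 0 (1386 genes). Both fits left out ADV 24 and ADV 25, whose numbers no LD library shares. With no calls left before the block was added, its effect on them could not be read. The labels tie the numbers to no shared day or litter, and the deviations of same-numbered LD and ADV libraries from their group means correlated between -0.261 and 0.435 (median 0.011) over 14 pairs, 6 of them above 0.1, with 3 of 14 LD libraries closest to their own number. No paired analysis was possible because the 2 sets compared within a schedule share no replicate number. Depth limits genes near 20 reads.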
